A study of Mus musculus with 2 samples.

Results

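Isolated narrow peaks of PHF19 in mouse embryonic stem cells are the peaks of the authors' list that span less than 1000 bp and have no other peak within 10000 bp, edge to edge, on the same chromosome. There were 582 of them among 3445 peaks, or 16.9% of the list. They made up 28.5% of the 2044 isolated peaks and 64.6% of the 901 peaks under 1 kb. Width and distance, both taken from peaks called on the ChIP reads, chose them, so the ChIP reads and the fold over input inside these peaks are given as a description, without support drawn from them.

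The study mapped PHF19 by chromatin immunoprecipitation followed by sequencing (ChIP-seq) in E14 cells, a line of mouse embryonic stem cells grown on gelatin with LIF, the cytokine that holds such cells in the pluripotent state. One library came from chromatin precipitated with a custom rabbit polyclonal antibody to PHF19, and the other was input DNA made without antibody from the same cell line. The labels give no genetic change, treatment or differentiation step for either library, so both describe E14 cells in the growth medium. With 1 library per group there was no replicate error, and each test compares the reads of these 2 libraries rather than conditions.

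PHF19 is a Polycomb-like protein that associates with Polycomb repressive complex 2 (PRC2), the complex whose EZH2 subunit methylates histone H3 at lysine 27. Its Tudor domain binds H3 trimethylated at lysine 36, a mark found over the bodies of transcribed genes. In embryonic stem cells PRC2 is best known from broad domains over the CpG-rich promoters of silent developmental genes. The isolated narrow peaks are the opposite extreme of the list, short and without a neighbour.

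The PHF19 library held 23965625 aligned reads of 42 bases at 21957101 distinct positions and strands, and the input library held 26433784 reads at 24496988 distinct ones. A read was counted once per position and strand unless stated otherwise. Fold is the PHF19 read count over the input read count, each divided by its library's distinct reads, and the ranges after folds and shares are exact 95% intervals that cover counting error only. Copies made by PCR are not independent molecules, and no molecular identifiers were given.

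The isolated narrow peaks were small in reads as well as in width. Their width ran from 343 to 999 bp with a median of 802.5 bp. The PHF19 library put between 14 and 207 reads in a peak, with a median of 28, and the input library between 0 and 143, with a median of 8. Isolated peaks of 1 to 2 kb held medians of 54 PHF19 and 18 input reads, and isolated peaks of 2 kb or more held 121 and 37. Per kb, the median PHF19 density was 33.9 reads in the isolated narrow peaks, 38.6 in isolated peaks of 1 to 2 kb and 46.1 in those of 2 kb or more. The narrow peaks were thus also the sparser ones per kb.

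The fold over input did not follow width in the same way. Summed over the 582 isolated narrow peaks, 16280 PHF19 reads stood against 5283 input reads, a fold of 3.44 (3.33 to 3.55). The fold was 3.27 (3.21 to 3.32) in isolated peaks of 1 to 2 kb, 3.33 (3.28 to 3.37) in isolated peaks of 2 kb or more and 3.56 (3.53 to 3.59) over the whole list. In the 319 narrow peaks that had a neighbour within 10 kb it was 3.84 (3.68 to 4.01), above the interval of the isolated ones. The median fold of a single isolated narrow peak was 3.53, with quartiles of 2.84 and 4.62. Medians were 3.22 in isolated peaks of 1 to 2 kb and 3.81 in those of 2 kb or more. They were 3.90 in narrow peaks with a neighbour and 3.68 over the whole list. By median the isolated narrow peaks thus stood below those of 2 kb or more, and by pooled reads above them. Pooling weighs peaks by their reads, and single peaks of 2 kb or more held up to 2942 input reads. A fold of at least 3 was reached by 403 peaks, of at least 6 by 71 and of at least 8 by 32.

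Of the 582 peaks, 578 had more PHF19 than input reads at a fold of at least 2 and an adjusted p of at most 0.05 (exact binomial test, Benjamini-Hochberg over all peaks). This was 99.3%, beside 98.5% of all 3445 peaks, a background that leaves nothing to read from the count. At a fold of at least 4 the call held for 210 peaks, or 36.1%, beside 40.6% of the list. The 4 uncalled peaks were at chromosome 1, 9859355 to 9859956 (28 PHF19 and 16 input reads), chromosome 1, 193634830 to 193635301 (15 and 7), chromosome 10, 49621415 to 49621907 (15 and 7), and chromosome 2, 57444409 to 57445392 (207 and 143). They are named because they were so few, after their values were seen. All coordinates are of mouse build mm8, counted from 1, and no annotation of that build was used here, so no gene, exon or promoter is assigned.

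**Figure D1:**
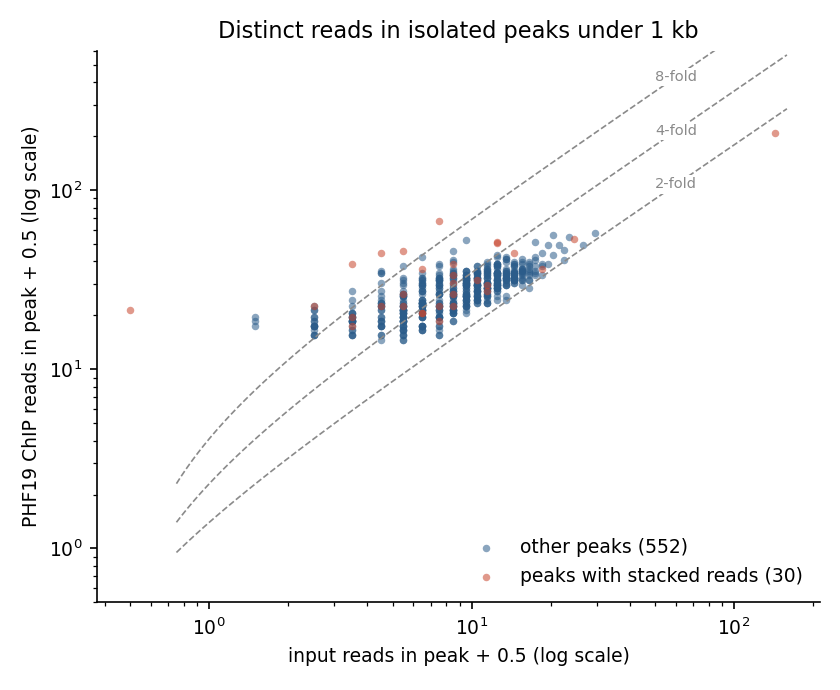
Distinct PHF19 ChIP reads (y axis) against distinct input reads (x axis) in each of the 582 isolated narrow peaks, both with 0.5 added and on log scales. Dashed lines mark 2-, 4- and 8-fold after scaling by library totals, and red points are the 30 peaks with stacked reads described in the text. Most peaks sit between 14 and 60 PHF19 reads, and 1 red point stands apart at 207 PHF19 and 143 input reads.

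Within the class, the narrowest peaks had the thinnest input. The 189 peaks under 700 bp had a pooled fold of 4.0 (3.74 to 4.28) and the 157 peaks of 900 to 999 bp one of 3.12 (2.96 to 3.28), a description only, since width chose the peaks. Their median PHF19 densities were 32.5 and 35.7 reads per kb, and their median input densities were 8.99 and 12.8 reads per kb. The PHF19 density was therefore slightly lower in the narrower peaks, and the higher fold went with fewer input reads.

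The caller's score, the authors' own value for each peak, placed these peaks low in the list. Scores ran from 50.01 to 424.72 with a median of 60.5, against 106 in isolated peaks of 1 to 2 kb and 285 in those of 2 kb or more. Only 27 of the 582 were in the upper part of the whole list when it was split at its median score. Across the 582 peaks the score rose with the number of PHF19 reads (Spearman rho 0.60) more than with width (0.42) or fold (0.22). These are descriptions over peaks that share the same 2 libraries.

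The widest peaks inside the limit of the rule were at chromosome 13, 12574193 to 12575191 (999 bp, 31 PHF19 and 14 input reads, fold 2.47), and chromosome 5, 120971546 to 120972542 (997 bp, 40 and 17, fold 2.63). Just outside stood chromosome 5, 144610589 to 144611588 (1000 bp, 35 and 14, fold 2.79), and X, 135624359 to 135625360 (1002 bp, 37 and 4, fold 10.3). The least isolated peaks inside had neighbours 10076 and 10201 bp away and folds of 3.04 and 3.16. Just outside, a pair on chromosome 11, at 95823033 to 95823991 and 95833726 to 95834561, lay 9734 bp apart with folds of 3.07 and 4.04. In wider bands, the median fold was 3.11 in the 157 isolated peaks from 900 bp up to the limit and 2.98 in the 144 within the next 100 bp of width.

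The distance limit mattered little to most of the peaks, because their neighbours were far away. The median distance to the nearest other peak was 294 kb, 28 peaks had one within 20 kb and 134 within 100 kb, and for 96 it was over 1 Mb. The most remote were X, 147485357 to 147486087, 7550 kb from its nearest neighbour with 23 PHF19 and 5 input reads, X, 158184736 to 158185328, at 5954 kb with 19 and 5, and chromosome 8, 3993904 to 3994629, at 4665 kb with 25 and 11. Their folds were 5.13, 4.24 and 2.54, inside the range of the class. One peak was the only one on its sequence, an unplaced part of chromosome 7.

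PHF19 signal did not stop at the called edges. In the first 250 bp on either side the fold was 1.52 (1.44 to 1.59), and over the first 1 kb it was 1.43 (1.40 to 1.47), from 15311 PHF19 and 11909 input reads. It fell to 1.18 (1.15 to 1.21) from 1 to 2 kb, 1.07 (1.06 to 1.09) from 2 to 5 kb and 1.02 (1.01 to 1.03) from 5 to 10 kb. Isolated peaks of 1 to 2 kb had 1.54 (1.52 to 1.57) and those of 2 kb or more 1.53 (1.49 to 1.57) in the first 1 kb, with 1.06 and 1.07 at 5 to 10 kb. In the first 1 kb and at 5 to 10 kb the interval of the isolated narrow peaks lay below both. From 1 to 2 kb it overlapped that of isolated peaks of 1 to 2 kb, 1.22 (1.199 to 1.24), and lay below that of peaks of 2 kb or more, 1.28 (1.25 to 1.31). Narrow peaks with a neighbour had 2.60 in the first 1 kb and 1.70 at 5 to 10 kb, zones that hold other peaks by their definition. Restricting the class to the 521 peaks with more than 50 kb on both sides gave 1.43 in the first 1 kb and 1.01 at 5 to 10 kb. The 552 peaks without stacked reads, described below, had 1.46 (1.42 to 1.495) in the first 1 kb. That interval just overlapped the one of isolated peaks of 2 kb or more, and lay below the one of 1 to 2 kb.

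**Figure D2:**
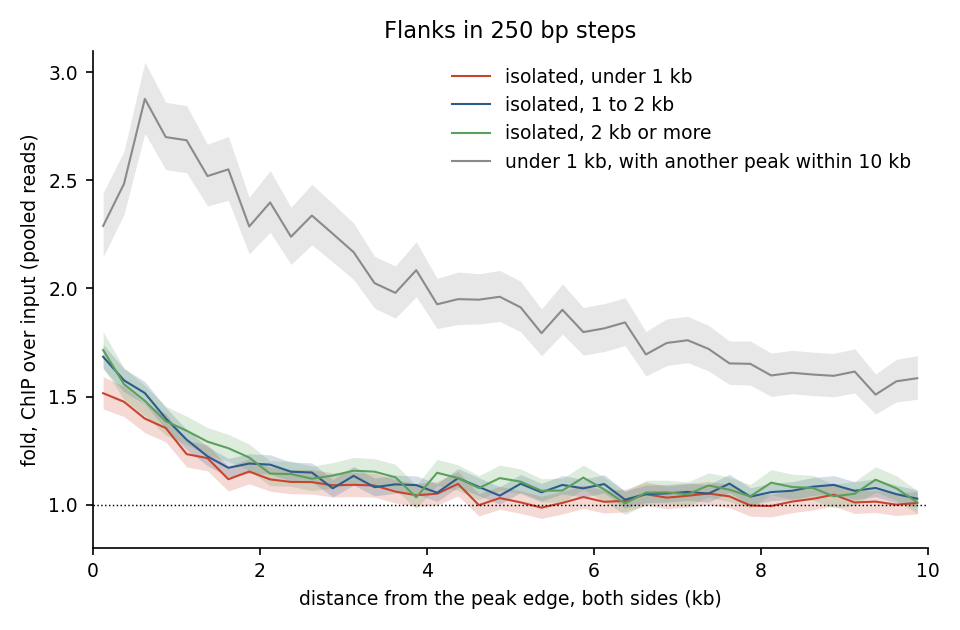
Fold of PHF19 over input (y axis) in 250 bp steps from the peak edge to 10 kb (x axis, kb), both sides summed, for classes of peaks named in the key, with exact intervals for counting error. The isolated narrow peaks start at 1.52 and reach 1.01 in the last step, while narrow peaks with a neighbour stay above them throughout.

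Flank signal varied widely from peak to peak. The fold in the first 1 kb had a median of 1.41 per peak, with quartiles of 1.04 and 1.87. It was at least 2 at 112 peaks and under 1 at 129.

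At 30 isolated narrow peaks the PHF19 reads were stacked, that is, at least 25% of them repeated a position and strand that another read already occupied. The limit of 25% was chosen after the data were seen. The 30 were 5.15% (3.50 to 7.28) of the isolated narrow peaks, on 15 chromosomes, and 17 of them were under 700 bp wide. Elsewhere in the list, such stacks were found at 3 of 967 isolated peaks of 1 to 2 kb, 1 of 495 of 2 kb or more and 0 of 319 narrow peaks with a neighbour, where a count of 0 leaves shares up to 1.15% possible. The 1082 peaks of 1 kb or more with a neighbour had 0, so isolated narrow peaks held 30 of the list's 34. With the limit at 40% the count was 19 and 3 others. At 10% it was 71 of the 582 isolated narrow peaks and 79 of the 2863 peaks outside the class. Peaks that passed the limit of 10% were thus not mostly in the class, but their share was still larger inside it than outside.

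Several of the best-scoring isolated narrow peaks were of this kind, 7 of the 10 highest. The peak with the highest score, 424.72, at chromosome 7, 48995902 to 48996584, had 98 PHF19 reads at 67 distinct positions and 7 input reads with no repeat. Its fold was 10.7 (4.91 to 27.6) with repeats removed and 15.4 with them kept. At chromosome 1, 12629509 to 12630367, 196 PHF19 reads fell on 51 distinct positions, while the 12 input reads had no repeat. There the fold was 4.74 (2.49 to 9.77) with repeats removed and 18.0 with them kept. At chromosome 11, 24999782 to 25000545, 118 reads fell on 44 positions, and the fold was 12.3 or 26.0 against 4 distinct input reads. At chromosome 6, 10135921 to 10136601, 71 reads fell on 38 positions, and the fold was 14.1 (4.48 to 71.6) or 26.1.

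Other high scorers had no stack. The peak at chromosome 4, 114340984 to 114341882 (score 231.79), had 52 PHF19 reads, none of them repeated, and 9 input reads, a fold of 6.45 (3.15 to 14.9). Those at chromosome 7, 65034392 to 65035372, and chromosome 3, 37540008 to 37540988, had 45 against 8 and 42 against 6 reads, folds of 6.28 and 7.81. Among peaks with at least 20 PHF19 reads high folds without a stack included 10.04 at chromosome 11, 115255894 to 115256619 (27 against 3), and 9.76 at chromosome 6, 127733811 to 127734676 (35 against 4). Their intervals were wide because input counts were so low.

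One stacked peak dominated sums over the 30 and is set apart. At chromosome 2, 57444409 to 57445392, 762 PHF19 reads fell on 207 distinct positions and 349 input reads on 143, so that both libraries were stacked, with 72.8% and 59.0% of reads repeating a position. Its fold was 1.61 (1.30 to 2.01), the lowest of the class. Without it, the other 29 stacked peaks lost 50.7% of their PHF19 reads and 8.16% of their input reads when repeats were removed, and with it 57.0% and 38.0%. At 22 of the 30 no input read was repeated at all. The stacked peaks held 69.2% of all PHF19 reads removed as repeats from the 582 peaks.

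Within the stacked peaks the distinct PHF19 reads lay on a very short stretch. A single base was covered by a median of 75.2% of a stacked peak's distinct PHF19 reads, against 19.3% in the other 552 isolated narrow peaks and 18.5% in narrow peaks with a neighbour. At least 40% of reads met at 1 base in 28 of the 30 stacked peaks and in 15 of the 552 others. In stacked peaks the median start of the minus-strand reads lay 43.0 bp downstream of that of the plus-strand reads. This covers the 28 with at least 5 reads on each strand. A distance near the read length of 42 bases follows in large part from most reads covering 1 base. In 525 other isolated narrow peaks the distance between the median starts was 163.5 bp. Reads were counted after a shift taken from the offset of 109 bp between the input's strands over the autosomes. Reads spread evenly over a peak would therefore give about that distance, so the 163.5 bp holds a built-in part.

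**Figure D3:**
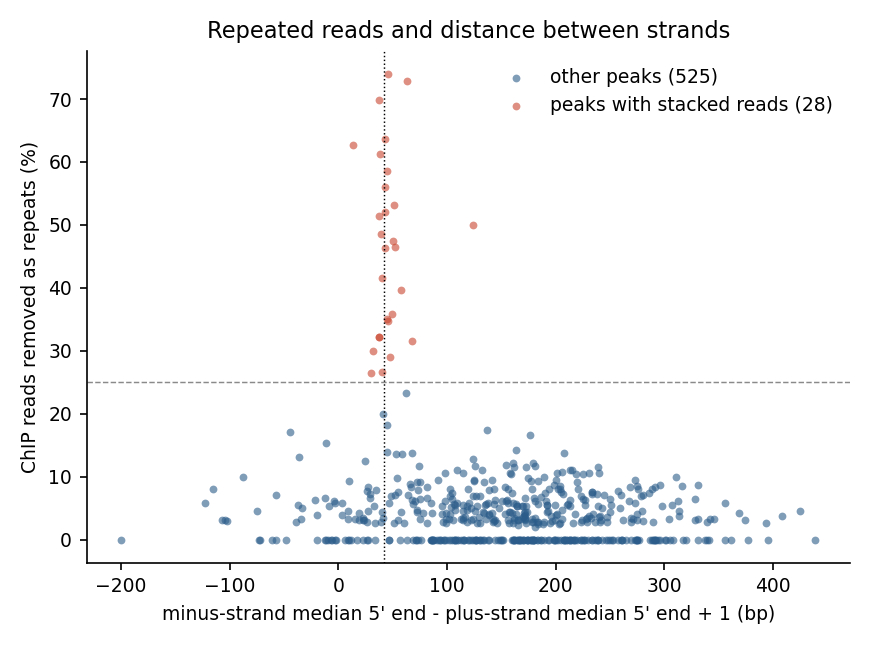
Percent of PHF19 ChIP reads that repeat an occupied position and strand (y axis) against the distance from the median plus-strand to the median minus-strand 5′ end (x axis, bp), for isolated narrow peaks with at least 5 reads on each strand. The dashed line marks 25% and the dotted line the read length of 42 bases. The 28 stacked peaks gather near the dotted line, and the 525 others spread around a median of 163.5 bp. Given the shift used in counting, evenly spread reads would lie near 109 bp.

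The contrast extended to the rest of the stacked peaks and to their flanks. Without the peak on chromosome 2, the fold within 100 bp of the most covered base was 9.65 (7.73 to 12.2), and over the rest of these peaks it was 1.37 (1.09 to 1.73). In the 552 other peaks the values were 4.69 and 2.92 (2.81 to 3.04). In the first 1 kb of flank the fold was 0.933 (0.824 to 1.06) for the 29 stacked peaks and 1.46 (1.42 to 1.495) for the 552 others. With the chromosome 2 peak included, the stacked values were 5.17 near the most covered base, 1.5 (1.22 to 1.83) over the rest and 0.942 (0.833 to 1.07) in the flank. The base was chosen by the PHF19 reads themselves, so the higher value around it follows in part from that choice, whereas the flank was not used to find the stacks. No shoulder of PHF19 signal was detectable beside the stacked peaks at this depth.

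**Figure D4:**
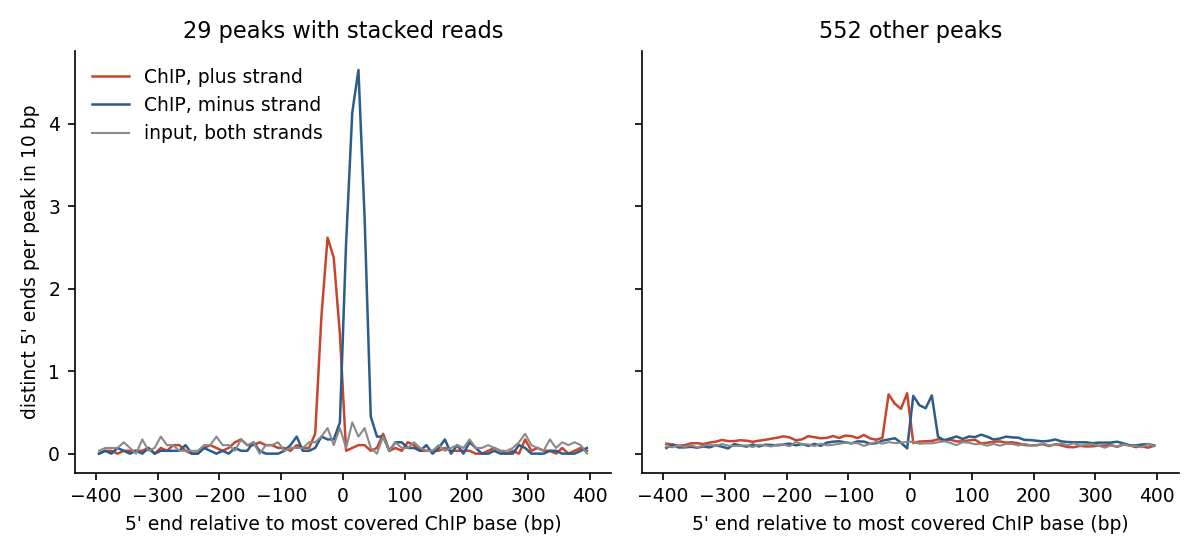
Distinct 5′ ends per peak in 10 bp windows (y axis) against distance from the most covered PHF19 base (x axis, bp), for 29 stacked peaks without the one on chromosome 2 (left) and the 552 other isolated narrow peaks (right), with PHF19 reads by strand and input reads of both strands together. Aligning on the most covered base makes a rise there in both panels, and the stacked peaks add to it a sharp pair of strands with more reads on the minus than on the plus strand.

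Minus-strand reads were in the majority at 24 of the 30 stacked peaks, against 240 of the 552 others. Over the 29 stacked peaks without the one on chromosome 2, 39.9% (36.8 to 43.2) of distinct PHF19 reads were on the plus strand, while the input reads there were 56.9% (50.1 to 63.5) plus. Over all 582 peaks the PHF19 plus share was 51.0% (50.2 to 51.8) and that of the input 52.4% (51.1 to 53.8). Strands were thus close to balance in the class as a whole.

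Strand balance of single peaks was tested against the plus share over all PHF19 reads in peaks, 50.6%. Over whole libraries the plus share of distinct reads was higher, 54.7% in PHF19 and 53.8% in input. At an adjusted p of at most 0.05 (exact binomial test, Benjamini-Hochberg over all peaks) 18 of the 582 peaks were out of balance, or 3.09%, beside 1.02% of all peaks. The remaining 17 of the list's 35 such peaks were among 2863 peaks outside the class, with 0 of the 319 narrow peaks with a neighbour. Of the 18, 16 leaned to the plus strand and 2 to the minus strand, and 3 of the 18 were stacked. At an unadjusted p under 0.05 there were 61, or 10.5%, beside 5.6% of all peaks. With repeated reads kept, the adjusted call took in 37, or 6.36%, beside 1.65%. Tested against the plus share of each peak's own chromosome, 13 of the 582 peaks were called. The share over all peaks was not computed for that alternative. The difference in share between the classes was not tested.

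Of the 16 plus-leaning peaks, 14 were not stacked, and in these the plus share of PHF19 reads ran from 82.9% to 100%. The stacked peak on chromosome 2 at 57444409 leaned less, with 148 of 207 PHF19 reads and 110 of 143 input reads on the plus strand (PHF19 adjusted p = 5.03e-07, exact binomial test). At chromosome 7, 6681355 to 6682344, 30 of 32 PHF19 reads were on the plus strand (adjusted p = 6.88e-05, exact binomial test), and so were 9 of 10 input reads. At chromosome 5, 17635842 to 17636480, it was 20 of 20 PHF19 reads (exact adjusted p = 4.22e-04) and 3 of 3 input reads. At chromosome 1, 166061439 to 166062162, and at chromosome 7, 29325243 to 29325821, all 19 PHF19 reads were plus (exact adjusted p = 7.48e-04 each). Of their input reads, 2 of 3 and 1 of 2 were plus. The input thus leaned the same way on chromosome 2 and at 6681355 on chromosome 7. At the other peaks named here, 2 or 3 input reads are too few to show a lean.

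Over the 14 plus-leaning peaks that were not stacked, 94.0% (90.7 to 96.4) of PHF19 reads and 91.3% (82.8 to 96.4) of input reads were on the plus strand. The lean reached into their flanks in both libraries, at 82.7% and 79.0% in the first 1 kb and 67.9% and 67.4% from 1 to 10 kb. Their pooled fold, which the calling of the peaks conditions, was 4.17 (3.25 to 5.41), and it was 1.53 (1.28 to 1.83) in the first 1 kb of flank and 0.977 (0.921 to 1.04) beyond. On the 11 of them on autosomes the plus shares in the peak were 96.8% in PHF19 and 92.3% in input. At these 11 they were 82.2% and 78.0% in the first 1 kb, and 62.4% and 61.1% from 1 to 10 kb. In the input alone, 1 of the 582 peaks was called out of balance, the one on chromosome 2 at 57444409, beside 0.116% of all peaks. The input had a median of 6 reads in the 14 peaks, too few for single calls, and what sets the strand share there was not tested.

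Input density in the isolated narrow peaks was close to that of their surroundings. The median was 1.19 times the chromosome's median (quartiles 0.911 and 1.49) and 1.04 times that of the peak's own 10 kb flanks. The corresponding values relative to the chromosome median were 1.44 in isolated peaks of 1 to 2 kb, 1.48 in those of 2 kb or more and 1.11 in narrow peaks with a neighbour. Narrow peaks of both kinds thus lay on less raised input than wide ones.

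Input was raised, at 2 times the chromosome median or more with an adjusted p of at most 0.05 (exact Poisson test, Benjamini-Hochberg over all peaks), at 22 of the 582 peaks, or 3.78%, beside 6.73% of the list. The highest was again the stacked peak on chromosome 2 at 57444409, 16.1 times its chromosome's median (exact adjusted p = 8.60e-114). Next were chromosome 3, 142128796 to 142129575, at 4.13 times with 57 PHF19 and 29 input reads, chromosome 4, 20282542 to 20282975, at 3.84 times with 36 and 15, chromosome 14, 6163642 to 6164575, at 3.48 times with 49 and 26, and chromosome 6, 48050637 to 48051286, at 3.08 times with 36 and 18. Folds over input at the 22 ran from 1.61 to 3.604 with a median of 2.31, against 3.53 in the class.

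No peak of the class was called as lowered in input (0.5 times or less, same test), beside 0.029% of the list, and 3 had an unadjusted p under 0.05 in that direction. At a median of 8 input reads per peak a depletion by that amount is hardly detectable. The lowest input was at chromosome 10, 83384133 to 83384635, a stacked peak with 21 PHF19 reads and 0 input reads, at least 7.81-fold higher in PHF19 when 3 reads are taken as the floor for the input. Chromosome 8, 71776684 to 71777328, had 19 against 1 read, a ratio of 21.2 (3.37 to 881), and chromosome 16, 32625347 to 32625841, 18 against 1, a ratio of 20.1 (3.17 to 837). Such ratios rest on 1 input read.

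The isolated narrow peaks were spread over all 19 autosomes and X. The autosomes carried 557 of them, 0.226 per Mb (0.208 to 0.246), from 0.164 per Mb on chromosome 15 to 0.345 on chromosome 11. X carried 20, or 0.121 per Mb (0.0738 to 0.187), which is 0.534 (0.324 to 0.833) times the autosomal density. For isolated peaks of 2 kb or more the X to autosome ratio was 0.0607, and for all peaks 0.224. Isolated narrow peaks therefore made up 39.2% (25.8 to 53.9) of the peaks on X and 16.5% (15.2 to 17.8) of those on autosomes. Among autosomes that share ran from 12.1% on chromosomes 2 and 15 to 28.0% (18.7 to 39.1) on chromosome 16.

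**Figure D5:**
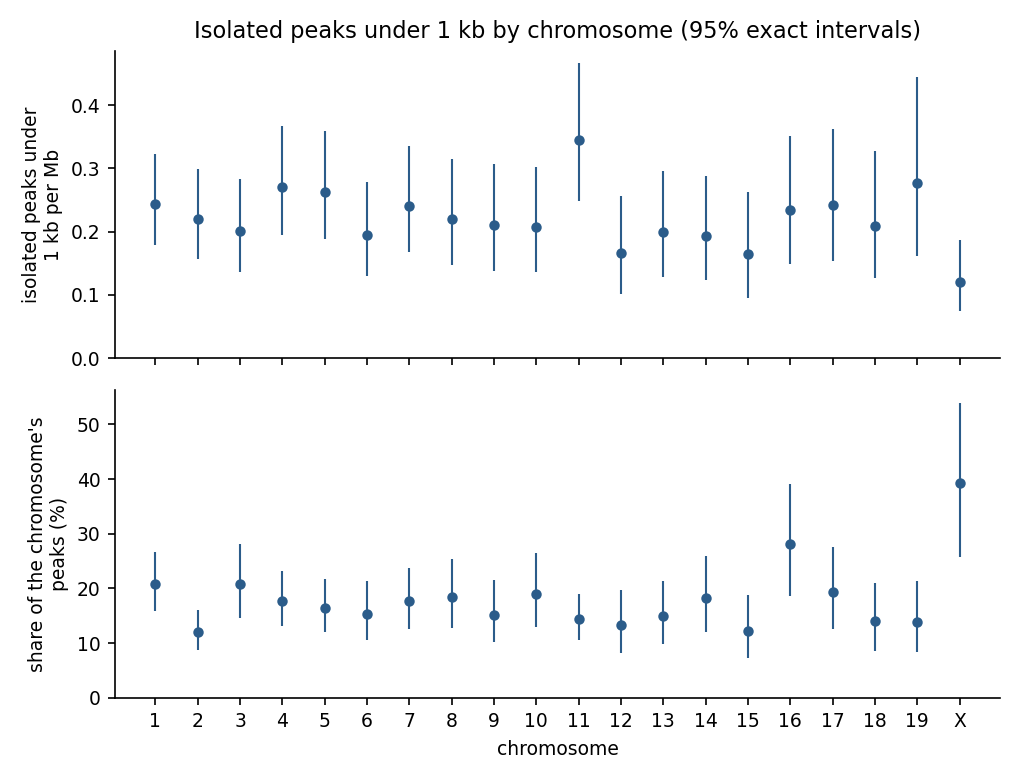
Isolated narrow peaks by chromosome, as number per Mb and as percent of the chromosome's peaks, with exact intervals. X has 0.121 per Mb, below every autosome, and 39.2% of its peaks are of this class, above every autosome.

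The 20 peaks on X had fewer reads and a higher fold than those on autosomes. Their median width was 671 bp, against 816 bp on autosomes, and their median input count was 5. The pooled fold was 5.04 (4.04 to 6.34), against 3.41 (3.30 to 3.52). In the first 1 kb of flank it was 2.24 (1.92 to 2.61) on X and 1.42 (1.39 to 1.46) on autosomes, and from 1 to 2 kb 1.48 (1.24 to 1.76) and 1.18 (1.15 to 1.21). From 5 to 10 kb the values were 1.01 and 1.02. Input in the outer flanks was 5.32 reads per kb on X and 10.6 on autosomes, and the part of this lower coverage in the higher fold was not tested. The higher fold on X was not particular to this class. All 51 peaks on X had a pooled fold of 5.51 (4.89 to 6.21), beside 3.56 over the whole list.

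Sequences not placed on a chromosome held the remaining 5 peaks. Of these, 4 were on the unplaced part of Y, which had 7 peaks in all, and 85.7% (77.2 to 92.0) of their PHF19 reads were on the plus strand. Over that whole sequence 82.8% of PHF19 reads were plus, so the lean was shared with their surroundings. Their pooled fold was 3.12 (2.10 to 4.74).

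Leaving out every peak that was stacked, strand-called or at 2 times or more of the input median removed 72 of the 582. The 510 that remained had a pooled fold of 3.53 and a fold of 1.48 in the first 1 kb of flank. The flank value lay above the interval over all 582 peaks, 1.40 to 1.47. Removing peaks for high input favours a higher fold, so these values cannot show that the level was kept. With the stacked peaks alone left out the pooled fold was 3.44 (3.33 to 3.55).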

How the data were processed

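The files were the authors' aligned read positions of the PHF19 ChIP and input libraries and their peak list. Per the submitters' processing notes the reads were aligned with Bowtie to mouse build mm8, and per the labels the libraries had 14 cycles of PCR and were cut from a gel at 150 to 400 bp. Peaks came from MACS, per the file headers, and the list bears a score per peak, as deposited by the authors. The settings of the caller, whether input served as control and whether multiply mapped reads were kept: not given in the sources used here.

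Reads were counted here once per position and strand, with 5′ ends moved inwards by 54 bp, from an offset of 109 bp between the input's strands. Counts were taken per peak and in 250 bp steps to 10 kb, and scaled by distinct reads per library. Enrichment and strand balance were tested by exact two-sided binomial tests and input density by an exact two-sided Poisson test against the chromosome's median 1 kb bin, each with Benjamini-Hochberg adjustment over all 3445 peaks (Python 3.11.15, scipy 1.17.1). The scripts were tested on simulated data. An input count of 0 was raised to 3 for folds.

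Regions were named by rule: the 10 highest scores, the 10 largest folds (input counts below 3 raised to 3, at least 20 ChIP reads), the 5 highest and 3 lowest input densities, the 5 lowest adjusted p for strand, the 3 with most ChIP reads, 2 on each side of each limit and the 3 most remote. Some are given only within ranges. The peaks and rules were chosen with earlier results of these data known. No mm8 sequence or annotation was used here, so the planned GC and CpG comparison was not run. Alternatives were repeats kept, no shift, scaling by autosomal reads outside peaks, other limits of width, distance, fold and score, and autosomes only.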

Additional observations from a re-analysis of the deposited data

How the results depend on the processing

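No paired analysis was possible because each group had 1 library. The number of peaks was 288 with a width under 800 bp and 27 among peaks above the list's median score. The pooled fold was 3.59 with all reads kept, 3.75 under 800 bp and 5.23 above the median score, and the median fold was 3.79 and 5.30 in the latter 2. Requiring a fold of 4 left 210 enriched calls. With all reads kept, so that each repeat counted, 37 peaks were out of strand balance, and what added these calls was not tested. Requiring 3 times the chromosome median left 5 peaks with raised input, and relative to the peaks' own flanks the median input density was 1.04. The fold in the first 1 kb of flank was 1.40 without the shift and 1.48 without stacked, strand-called or raised-input peaks, an alternative chosen after seeing the data, as were all that concern stacks. A limit of 40% left 19 stacked peaks. The other 33 alternatives kept values inside their interval or changed counts by at most 1.5 times. Among the named regions 1 call changed, the peak on chromosome 2 at 57444409, with a fold of 2.41 when all reads were kept. With a median of 8 input reads per peak, folds of single peaks are imprecise, and with 1 library per group no replicate error could be had.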

Other observations

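Stacked reads also occurred outside the peak list. In 1 kb bins with at least 30 PHF19 reads of which at least 25% repeated an occupied position and strand, 441 bins on the autosomes and X touched no peak and 35 touched one. The 441 bins had a median of 185 PHF19 reads on 47 distinct positions and 132 input reads, and in 400 of them the input had also lost at least 25% of its reads to repeats. The 35 bins touching a peak had medians of 72 PHF19 reads, 34 distinct positions and 11 input reads, and in 6 of them the input had lost that share. Among these bins, stacks in both libraries were the more frequent form outside peaks, and stacks in PHF19 alone the more frequent form inside them. This is a description only. Peaks were called on the PHF19 reads, and whether the input served as control is not known. The bins were picked on PHF19 reads with no minimum of input reads, so a loss of 25% of few input reads is harder to reach inside peaks.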
